A study of Xenopus laevis with 60 samples.

Results

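Wnt proteins are secreted signals that bind Frizzled receptors with the co-receptors Lrp5 and Lrp6 at the cell surface. In the canonical branch of the pathway this frees beta-catenin, the product of ctnnb1, from a complex that contains Axin, and beta-catenin then acts on genes in the nucleus together with Tcf and Lef proteins. Secreted antagonists of the Sfrp and Frzb type bind the ligand, and those of the Dkk type bind the co-receptors. In the frog embryo, maternal beta-catenin on the dorsal side sets up the organizer, and Wnt8a signals on the ventral and lateral side at gastrulation. The genes of this machinery were followed here from the early cleavage embryo to the gastrula of Xenopus laevis, an allotetraploid frog whose genome holds an L and an S copy (homeologs) of many genes.

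The set was every gene row whose symbol begins with wnt and a digit, fzd, sfrp, frzb, dkk and a digit, lrp5, lrp6, axin or tcf7, or is lef1 or ctnnb1. The rule uses names and no measured value. It found 85 of 49580 genes, 44 L and 41 S copies of 50 genes, of which 35 are present as a pair. By role they are 35 ligands, 17 receptors, 3 co-receptors, 18 secreted antagonists, 4 axins and 8 nuclear effectors (ctnnb1, lef1, tcf7 and tcf7l). Of these, 64 reached 0.5 exon counts per 1e6 in at least 1 library and were tested, and 34 also had testable introns. The 21 members that did not reach it stayed at or below 0.998 TPM (the share of a transcript scaled to 1e6, an exon level per length) in every library. They were dkk2.L, sfrp5.S and 19 ligands, including both copies of wnt1, wnt3, wnt3a, wnt7c, wnt9a and wnt10a, wnt4.S and wnt16.L.

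The study compared whole wild-type embryos, 2 pooled per sample from mixed clutches, by total RNA sequencing after removal of ribosomal RNA, and the letters A to H mark collections of embryos. Untreated embryos were taken at stages 5 and 8, at stage 9 (8 h after fertilization, collection A) and at stage 10.5 with 2 libraries each, and at stages 6 and 7 with 1 library each. The stage 5 libraries alone are labeled as also depleted of the mitochondrial COX2 and COX3 RNA. In comparisons with stage 5, that step and the stage cannot be told apart. In collections A and B, embryos received 20 µM triptolide, which blocks transcription, from stage 1 or the vehicle DMSO, and in collection B also 500 µg/mL cycloheximide, which blocks translation, from stage 8 (2 libraries each). All of these and the following embryos were collected when matched untreated siblings were at stage 9.

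Translation-blocking morpholinos were injected at stage 1 against the maternal pluripotency factors Pou5f3 and Sox3, with a GFP morpholino as the control. In collection G (3 libraries a group) the doses were 120 ng GFP against 40 ng pou5f3.3, 40 ng sox3 and 40 ng GFP morpholino. Collection F (3 libraries a group) held 120 ng GFP, 40 ng each of pou5f3.2, pou5f3.3 and GFP, and the triple with 40 ng each of pou5f3.2, pou5f3.3 and sox3, the last also in a group with cycloheximide. Collection C (2 libraries a group, all in cycloheximide) held 80 ng GFP, 40 ng pou5f3.3 with 40 ng GFP, 40 ng sox3 with 40 ng GFP, and 40 ng of both. Collection D (2 libraries a group, all in cycloheximide) held 80 ng GFP and a high dose of 55 ng pou5f3.3 with 75 ng sox3. Collection E holds single libraries, untreated, with 80 ng GFP and with 40 ng each of pou5f3.3 and sox3. Collection H, set aside by the submitters, holds 120 ng GFP with and without cycloheximide and the triple with cycloheximide. Neither was tested. Samples of 1 group with a collection letter share that collection, so p-values measure the spread between sets of embryos within it, not between collections. The paper treats such libraries as biological replicates. Stages 5, 8 and 10.5 carry no collection label. Whether the libraries of each of these stages share a collection is not known, and stage and collection cannot be told apart.

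Libraries held 6809284 to 25358689 exon counts and 36766 to 1638148 intron counts. No library pair was a duplicate. Introns mark RNA that is not yet spliced, and introns held 0.562% to 0.578% of all counts at stage 5, 7.38% to 7.66% at stage 9 and 14.9% in both libraries of stage 10.5. The summed level of 6 blood marker rows, which would mark maternal tissue, did not exceed 0.798 TPM. Messenger RNA of pou5f3.3.L, a morpholino target, was not lower in morphants (486 to 529 TPM against 433 to 437 in collection F), and with translation-blocking morpholinos RNA does not check the labels. In whole embryos, fewer cells that express a gene and less RNA per cell cannot be told apart.

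All comparisons come from 1 fit of exon and intron counts by edgeR's quasi-likelihood test, and a call required an adjusted p (Benjamini-Hochberg) under 0.05 together with a log2 difference of 1.5 or more, in exons or introns. Log2 differences are given with their standard errors. The share of all 27602 tested genes that was called stands beside each count of members. Members and other genes passed the same filter, and a gene that passes through its high group alone is likely to be called. Introns were tested for 34 of the 64 members and for 9916 of the 27602 genes. Members thus more often had an intron entry through which they could be called. At stage 9 against stage 5, 29 of 34 member intron entries were called higher, but 19 of 64 exon entries. The shares therefore describe the set and test nothing.

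The maternal load, read at stage 5 before the genome is switched on, was uneven across roles. In all, 29 members had at least 1 TPM: 2 ligands, 10 receptors, all 3 co-receptors, 4 antagonists, all 4 axins and 6 nuclear effectors. The ligand RNA was almost entirely wnt11b.L, the maternal dorsal Wnt of Xenopus, with 137 and 140 TPM and 93.2% of the summed ligand level. The only other ligand above 1 TPM was wnt5a.S, a ligand best known for non-canonical signaling, with 6.96 and 6.75 TPM. Among the receptors fzd7.L, the main maternal Frizzled, led with 115 and 121 TPM, 53.8% of the receptor sum. The secreted antagonists were led by sfrpx.S (36.4 and 37.1 TPM, 83.1% of their sum). The co-receptors lrp6.L (86.6 and 90.2), lrp6.S (79.3 and 78.2) and lrp5.L (57.3 and 58 TPM) were of one order. The lrp6.S row has only 339 bases of exon, against 5598 for lrp6.L, and no intron entry, so its TPM is less certain. The axins, scaffolds of the complex that degrades beta-catenin, were led by axin2.L (89 and 86.9 TPM). The highest members of all were ctnnb1.L (422 and 427 TPM) and ctnnb1.S (390 and 388 TPM).

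At stage 8, in the blastula, few members had moved. Against stage 5, 7 of 64 tested members were higher (background of all genes 8.31%) and 3 lower (4.39%), among them wnt5b.L in both directions. The member median was 0.02 for exons, against 0.00 for all genes. dkk1.S, a Lrp-binding antagonist made by the organizer, was at 0 in both stage 5 libraries and the stage 6 and 7 libraries, and at 2.17 and 2.46 TPM at stage 8. That is at least 8.48-fold higher (floor of 3 counts per library, adjusted p = 4.04e-06 by edgeR), while its homeolog dkk1.L was still at 0. The non-canonical ligand gene wnt5b was called higher by introns in both copies, by 4.54 ± 0.94 for wnt5b.L and 4.35 ± 0.66 for wnt5b.S on the log2 scale (adjusted p = 0.000139 and 5.60e-07). In the exons of wnt5b.L the level went from 0.6 and 0.564 to 0.105 and 0.103 TPM (log2 -2.42 ± 0.92, adjusted p = 0.043). fzd2.S (0.379 and 0.317 to 3.18 and 2.35 TPM) and wnt16.S (0.136 and 0.142 to 4.27 and 1.41 TPM), named after their values were seen, also rose. Of the maternal RNAs, the Sfrp-type antagonist sfrp5.L left the embryo, from 2.11 and 2.44 TPM through 0.435 at stage 6 and 0.254 at stage 7 to 0 from stage 8 onward (at least 5.80-fold lower, adjusted p = 3.23e-06). wnt10b.L, which fell short of 1 TPM at stage 5, went from 0.689 and 0.651 TPM to 0 and 0 (at least 1.96-fold lower, adjusted p = 0.00798). Its RNA was present again in the later untreated embryos of collection A. Between DMSO and triptolide its exons differed by log2 0.33 in collection A and 0.09 in B, and neither was called. Whether its 0 at stage 8 reflects loss of RNA or a difference between collections was not tested. The calls of wnt5b.L exons, wnt10b.L, fzd8.S and the introns of ctnnb1.L were lost without single libraries of either stage, with adjusted p up to 0.21. Without stage 8 replicate 2, 6 rather than 10 calls were made.

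By stage 9 the set had been switched on broadly. Against stage 5, 36 of 64 tested members (56.25%) were higher against 35.4% of all genes, and 4 lower against 6.44%. The higher members were 11 of 17 receptors, 7 of 8 nuclear effectors, 7 of 16 tested antagonists, 6 of 16 tested ligands, 3 of 4 axins and 2 of 3 co-receptors. The median intron difference of the members was 6.55 on the log2 scale, against 3.54 over all introns tested. With members that lack counts in one group set to a 3-count floor it was 5.00. The introns leave out every region covered at stage 5, which favors a rise over that stage.

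wnt8a, the ventrolateral ligand gene, showed the largest change of the ligands. wnt8a.L was at 0 in all 6 libraries of stages 5 to 8, at 22.7 and 26 TPM at stage 9 and at 156 and 155 TPM at stage 10.5. The stage 9 level was at least 100.2-fold above stage 5 (adjusted p = 6.75e-23), and stage 10.5 lay a further 2.81 ± 0.13 log2 units above stage 9 (adjusted p = 3.30e-25). wnt8a.S followed at a lower level, 5.14 and 8.21 TPM at stage 9 and 78 and 81.9 TPM at stage 10.5, at least 32.8-fold above stage 5 at stage 9 (adjusted p = 1.98e-14). For both copies the groups were far apart with no overlap.

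wnt11b.L showed the reverse case, in which a maternal RNA hides new transcription. Its exon level went from 137 and 140 TPM at stage 5 to 73.6 and 77 at stage 9 (log2 -1.01, short of the threshold on size). Its introns went from 0.056 and 0.081 to 7 and 8.64 RPKM (reads per kilobase of intron per 1e6 exon counts), a difference of 6.63 ± 0.26 (adjusted p = 1.26e-28). At stage 10.5 it stood at 161 and 155 TPM. Its share of the summed ligand level went from 93.2% at stage 5 to 61.6% at stage 9 and 33.2% at stage 10.5, while the ligand sum went from 149 ± 1.78 to 122 and 475 TPM (SD, n = 2).

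Receptor genes rose from both low and high maternal levels. fzd7.S had 2.84 and 3.31 TPM at stage 5, 41.5 and 42.5 at stage 9 (log2 3.64 ± 0.16, adjusted p = 5.61e-26) and 155 and 160 at stage 10.5. Its homeolog fzd7.L held 149 and 158 TPM at stage 9 and reached 734 and 737 at stage 10.5 (2.40 ± 0.10, adjusted p = 3.16e-26), 58.7% of all receptor RNA. The receptor genes fzd8 and fzd10 began near the floor. fzd8.L stood at 0.857 and 0.426 TPM at stage 5, 9.77 and 11.9 at stage 9 and 64.7 and 60.1 at stage 10.5. fzd8.S went from 0.141 and 0.089 over 3.52 and 6.41 to 78.6 and 78.9 TPM, so that the copies changed places. fzd10.L went from 0.033 and 0.068 over 5.48 and 5.88 to 49.4 and 48.8 TPM, and fzd10.S reached 28.4 and 27.7 TPM. fzd4.S, named after its values were seen, had 12.6 and 12.7 TPM of maternal RNA and 30.7 and 27.4 TPM at stage 9, with introns up from 0.036 and 0.019 to 5.93 and 5.17 RPKM.

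The maternal co-receptor, axin and nuclear effector genes with tested introns were all called higher by introns at stage 9. lrp6.S, axin1.L and tcf7l2.L had no tested introns and were not called. The exon level of ctnnb1.L moved little, from 422 and 427 TPM to 484 and 477 at stage 9, and reached 843 and 842 TPM at stage 10.5 (0.95 on the log2 scale over stage 9, under the threshold). Its introns went from 0.056 and 0.074 RPKM at stage 5 over 0.224 and 0.204 at stage 8 to 13.3 and 13.3 at stage 9, 7.51 ± 0.22 log2 units above stage 5 (adjusted p = 2.96e-33). The introns of ctnnb1.S went from 0.052 and 0.054 to 9.15 and 8.63 RPKM (7.22 ± 0.20, adjusted p = 3.71e-34). The introns of the Tcf repressor genes tcf7l1.L and tcf7l1.S were 7.41 ± 0.23 and 8.34 ± 0.28 higher, and those of tcf7.S 6.71 ± 0.30 higher. axin2.L, a well known Wnt target as well as an axin, was 4.90 ± 0.22 higher in introns and went from 89 and 86.9 to 62.4 and 56.6 TPM in exons. The introns of lrp6.L and lrp5.L were higher by 4.93 ± 0.20 and 3.33 ± 0.21. lef1, in contrast, was at or near 0 in the maternal pool. lef1.L was at 0 in both stage 5 libraries, at 0.836 and 1.27 TPM at stage 9 (at least 10.2-fold higher) and at 19.6 and 20.1 TPM at stage 10.5. lef1.S had a mean of 0.032 TPM at stage 5.

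Between stage 5 and the untreated stage 9 embryos of collection A, the leading antagonist changed. sfrpx.S, the maternal leader, fell from 36.4 and 37.1 to 14.7 and 10.7 TPM by stage 9 (log2 -1.65 ± 0.14, adjusted p = 6.64e-15, but -1.45 and so not called without stage 9 untreated replicate 2, and -1.46 with TMM scaling from exons alone). sfrp2.L rose from 0.068 and 0.071 to 20.8 and 21.8 TPM (8.00 ± 0.29, adjusted p = 5.04e-30), and was the highest antagonist in these stage 9 embryos. sfrp2.S rose from 1.36 and 1.48 to 14.5 and 16.9 TPM (log2 3.33). dkk1.L was at 0 at stages 5 to 8 and at 5.32 and 7.4 TPM at stage 9, at least 23.7-fold higher, and dkk1.S reached 8.99 and 10.1 TPM. frzb.S, an organizer gene for a ligand-binding antagonist, went from 0.06 and 0.125 to 3.63 and 7.39 TPM, and frzb.L from 0.266 and 0.277 to 2.57 and 2.54. The other lower members were sfrp5.L (at least 13.9-fold lower), sfrpx.L and dkk2.S. The calls of dkk2.S (log2 -2.05) and sfrpx.L (log2 -1.66) were lost without stage 9 untreated replicate 2 (adjusted p = 0.131 and 0.105) and without stage 5 replicate 2 (adjusted p = 0.144 for dkk2.S, log2 -1.49 for sfrpx.L), that of sfrpx.L also with TMM scaling from exons alone (log2 -1.46) and that of dkk2.S with DESeq2 (adjusted p = 0.326). Those of fzd9.S and lef1.S exons and of frzb2.L and fzd6.L introns were also lost without single libraries, with adjusted p up to 0.394.

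**Figure D1:**
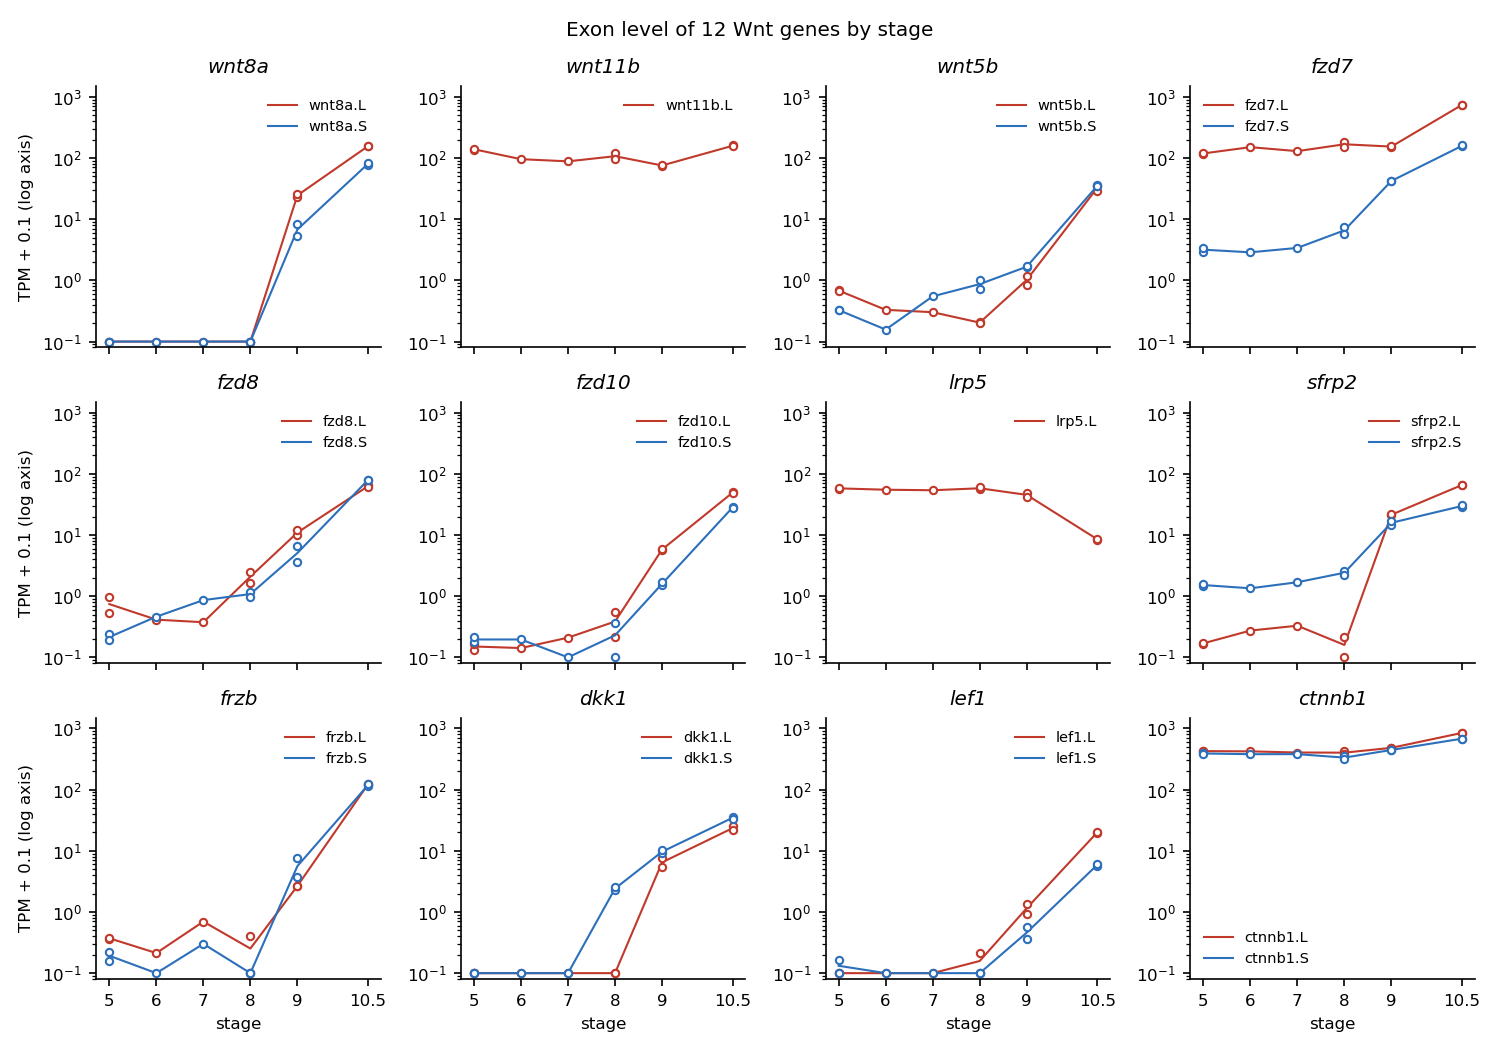
Exon level of 12 Wnt genes at stages 5, 6, 7, 8, 9 (untreated, collection A) and 10.5, as TPM plus 0.1 on a log axis. Circles are libraries, lines join the means, L copies are red and S copies blue. wnt8a.L and wnt8a.S stay at 0 up to stage 8 and reach 155 and 78 TPM or more at stage 10.5, while ctnnb1.L stays between 382 and 843 TPM throughout.

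From stage 9 to stage 10.5, the early gastrula, members moved more in exons than genes at large. Of the 64 tested, 33 were higher (51.6%, against 25.7% of all genes) and 7 lower (10.9%, against 14%), with sfrp2.L in both directions. The member median of exon differences was 1.12, against -0.21 for all genes, and that of introns was 0.83 against 1.12. The exon median of all genes lay 0.262 or 0.236 higher under other scalings of the libraries. The higher members were 10 antagonists, 10 receptors, 9 ligands, 3 nuclear effectors and 1 axin. This comparison shares the stage 9 libraries with the one before.

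The organizer and axial antagonists led the rise. frzb.L went from 2.57 and 2.54 to 122 and 121 TPM (5.69 ± 0.18, adjusted p = 6.29e-35) and frzb.S to 114 and 121 TPM (4.57 ± 0.18). frzb.L thus became the highest antagonist, with 24.3% of a sum that went from 77.1 TPM at stage 9 to 498 TPM at stage 10.5. frzb2.L, at 46.8 and 49.5 TPM, was 7.82 ± 0.27 log2 units higher (adjusted p = 6.43e-34), and frzb2.S reached 20.3 and 19.6 TPM. sfrp1.S was at 0 at stage 9 and at 10.1 and 10.9 TPM at stage 10.5, at least 39.0-fold higher. sfrp2.L moved both ways: its exons rose from 20.8 and 21.8 to 64.3 and 66.4 TPM (1.75 ± 0.11, adjusted p = 1.31e-20), while its introns fell from 6.77 and 6.88 to 1.89 and 1.71 RPKM (log2 -1.99 ± 0.18). The introns of sfrp2.S fell likewise, from 6.39 and 7.39 to 1.5 and 1.58 RPKM (log2 -2.23 ± 0.17, adjusted p = 4.88e-17).

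Among ligands, wnt5b.L went from 0.748 and 1.09 to 29.3 and 35.4 TPM (5.28 ± 0.19, adjusted p = 4.41e-30) and wnt5b.S from 1.53 and 1.61 to 35.5 and 34.2 TPM (4.60 ± 0.18). wnt11.S, a gene distinct from wnt11b, was at 0 at stage 9 and at 3.15 and 3.87 TPM at stage 10.5, at least 12.1-fold higher, and the neural ligand gene wnt8b.S reached 2.56 and 3.1 TPM from 0, at least 15.9-fold higher, a call lost with DESeq2 (adjusted p = 0.0854). The maternal wnt5a.S fell from 7.35 and 6.32 to 2.16 and 1.73 TPM (log2 -1.68 ± 0.21, with a size under 1.5 and so not called under both other scalings), while wnt5a.L rose from 0.33 and 0.135 to 0.933 and 1.06 TPM. wnt10b.L fell from 1.68 and 2.03 to 0.073 and 0.292 TPM (log2 -3.16 ± 0.63, adjusted p = 3.74e-05), and sfrp4.L from 1.93 and 2.65 to 0.461 and 0.115 TPM (log2 -2.81 ± 0.55). The co-receptor gene lrp5.L was the only maternal receptor component to fall past the threshold, from 48.3 and 41.9 to 8.19 and 8.64 TPM (log2 -2.29 ± 0.09, adjusted p = 1.21e-27). lrp6.L stood at 102 and 109 TPM and lrp6.S at 145 and 119 TPM at that stage, so lrp6 made up most of the co-receptor sum. The part of lrp6.S in that sum is uncertain, because its row has only 339 bases of exon. wnt4.L was at 0.58 and 0.692 TPM at stage 10.5, and no wnt3a copy exceeded 0.804 TPM in any library. The call of dkk3.S was lost without stage 9 untreated replicate 1 or stage 10.5 replicate 1 (adjusted p = 0.12 and 0.129).

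Triptolide embryos show which of these levels needed transcription in the embryo. In collection A, 34 of 64 members (53.1%) were higher with DMSO than with triptolide against 27.4% of all genes, and in collection B 34 (53.1%) against 29.8%. The members called in A were 9 receptors, 7 effectors, 7 antagonists, 6 ligands, 3 axins and 2 co-receptors. The member medians were 0.04 and -0.06 for exons (all genes -0.20 and -0.13) and 5.35 and 6.18 for introns (all 2.73 and 3.36). With empty groups at the floor, the intron medians were 4.48 and 5.19. Collections A and B share no library.

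wnt8a.L had 30.4 and 24.6 TPM with DMSO and 0.113 and 0.116 with triptolide in collection A (7.59 ± 0.44, adjusted p = 5.66e-21), and 30.7 and 26.5 against 0 and 0 in B, at least 127-fold. wnt8a.S was at 0 in all 4 triptolide libraries and at 5.77 to 11.1 TPM in the 4 DMSO libraries. frzb.S was likewise at 0 with triptolide and at 6.6 to 9.33 TPM with DMSO, at least 36.1-fold in A and 45.3-fold in B. sfrp2.L had 13.8 and 13 against 0.099 and 0.062 TPM in B (7.18 ± 0.31, adjusted p = 6.37e-27). fzd7.S had 41.5 and 38.8 against 3.21 and 2.88 TPM in A and 35.4 and 42.2 against 6.4 and 5.66 TPM in B. Some of its RNA thus remained with triptolide, against a mean of 3.07 TPM at stage 5. Whether all of that RNA was maternal was not tested.

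For maternal genes the difference lay in the introns. ctnnb1.L had 446 and 459 TPM with DMSO and 463 and 450 with triptolide in B, while its introns had 7.32 and 7.38 against 0.064 and 0.064 RPKM (6.72 ± 0.23, adjusted p = 2.09e-30). ctnnb1.S introns had 5.1 and 5.84 against 0.01 and 0.036 RPKM (7.71 ± 0.24, adjusted p = 3.59e-32). The introns of wnt11b.L had 4.92 and 4.74 against 0.011 and 0.074 RPKM (6.61 ± 0.30), and those of tcf7l1.S 2.28 and 2.23 against 0.01 and 0.019 RPKM. In exons wnt11b.L had 64.6 and 63.7 against 53.4 and 46 TPM. The calls of frzb2.L and wnt2.L introns and wnt5b.L exons in A, and of fzd6.L and fzd6.S introns and fzd2.S and lef1.S exons in B, were lost without single libraries.

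In all, 32 members were higher than triptolide in both collections and higher at stage 9 than at stage 5 (50% of the 64 tested, against 24.3% of all genes), 9 of them by both exons and introns, 19 by introns alone and 4 by exons alone. Of the 32, 17 had at least 1 TPM of maternal RNA. Cycloheximide asks which of them are transcribed without new proteins. In collection B, 31 of 64 members (48.4%) stood above triptolide in cycloheximide, against 14.2% of all genes. Of those 32, 28 were among them (87.5%, against 47.7% of all genes that met the same criteria). The 4 that were not were frzb.L, frzb.S, fzd6.L and wnt2.L. The median intron difference was 4.28 for members and 1.31 for all introns (2.81 for members with empty groups at the floor). DMSO, cycloheximide and triptolide comparisons of collection B share libraries, so their values are set side by side only.

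Intron values show partial levels with cycloheximide. sfrp2.S had 3.16 and 2.65 RPKM with cycloheximide, 4.41 and 4.76 with DMSO and 0.007 and 0.006 with triptolide (cycloheximide over triptolide 8.44 ± 0.40, adjusted p = 1.15e-23). sfrp2.L had 1.63 and 2.02, 3.74 and 2.85, and 0 and 0.007 RPKM in that order. tcf7l1.S had 1.06 and 0.872 with cycloheximide against 2.28 and 2.23 RPKM with DMSO, and axin2.L 0.575 and 0.502 against 0.979 and 0.782. ctnnb1.L had 1.63 and 1.31 RPKM with cycloheximide (4.44 ± 0.28 over triptolide) and ctnnb1.S 1 and 0.803 (5.15 ± 0.32). In exons, fzd7.S had 20.2 and 24.9 TPM with cycloheximide, between triptolide and DMSO with no overlap, and fzd8.S 7.66 and 10.1 TPM. dkk1.L had 2.7 and 2.07 TPM with cycloheximide and 2.78 and 2.27 with DMSO, so that the groups overlapped, and 0 with triptolide. The calls of lef1.S exons and fzd6.S introns were lost on the adjusted p without cycloheximide replicate 2 (log2 4.98 and 4.67). That of fzd9.S exons was lost without triptolide replicate 1 (log2 1.12), without cycloheximide replicate 2 (log2 1.43) and without the low-count filter (log2 1.45). It was also lost with DESeq2 (adjusted p = 0.0524) and in an edgeR fit of only the 2 groups (adjusted p = 0.0957).

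**Figure D2:**
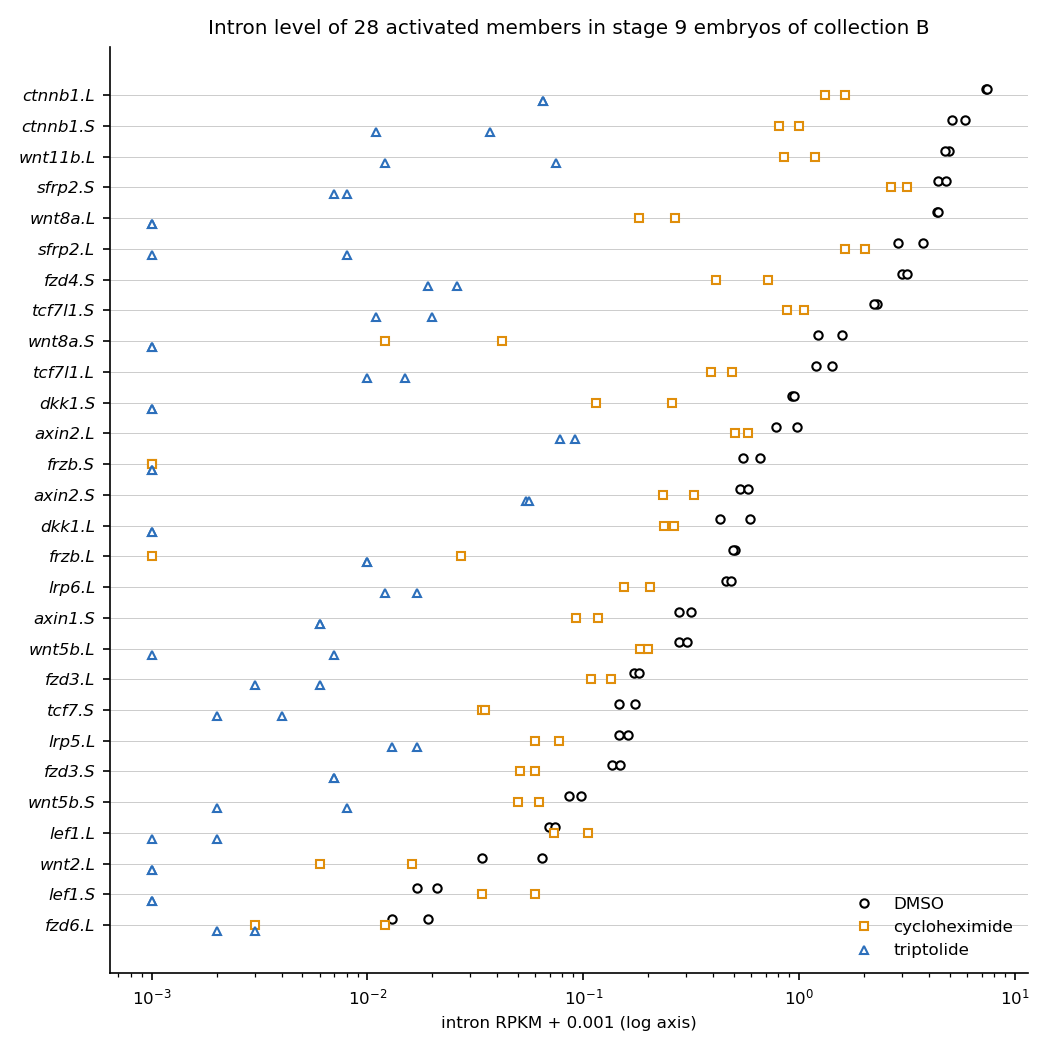
Intron level in collection B of the 28 members that introns called higher at stage 9 than at stage 5 and with DMSO than with triptolide, as RPKM plus 0.001 on a log axis, with 2 libraries a group. DMSO libraries are black circles, cycloheximide orange squares and triptolide blue triangles, and a value of 0 lies at 0.001. For ctnnb1.L, cycloheximide (1.63 and 1.31 RPKM) lies between DMSO (7.32 and 7.38) and triptolide (0.064 and 0.064).

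Against DMSO, cycloheximide left 12 members short (18.75%, against 20.6% of all genes) and 1 above (1.56%, against 2.21%). The ventral and organizer genes wnt8a and frzb differed most. frzb.S had 6.6 and 8.7 TPM with DMSO and 0 and 0.088 with cycloheximide (7.27 ± 0.67, adjusted p = 3.10e-13), and frzb.L 2.69 and 3.94 against 0.109 and 0.394 TPM (3.78 ± 0.58). wnt8a.L had 30.7 and 26.5 against 2.65 and 4.59 TPM (3.07 ± 0.21, adjusted p = 2.39e-17) and wnt8a.S 9.63 and 11.1 against 0.492 and 0.688 TPM (4.19 ± 0.34). wnt8a.L with cycloheximide was still at least 16.1-fold above triptolide, where it was at 0, and frzb.S with cycloheximide was near 0 as with triptolide. wnt5a.L was the member that was higher with cycloheximide, at 1.99 and 1.5 TPM against 0.453 and 0.184 (DMSO over cycloheximide -2.42 ± 0.40, adjusted p = 1.72e-06). The others called were the introns of ctnnb1.L, ctnnb1.S, dkk1.S, fzd4.S, tcf7.S, tcf7l1.L, wnt2.L and wnt11b.L, 1.54 to 2.55 log2 units higher with DMSO. Of these, the call of wnt2.L (adjusted p up to 0.356) and of tcf7l1.L (log2 1.40 and 1.41) was lost without DMSO replicate 2 and without cycloheximide replicate 2, and that of wnt2.L without cycloheximide replicate 1 too.

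**Figure D3:**
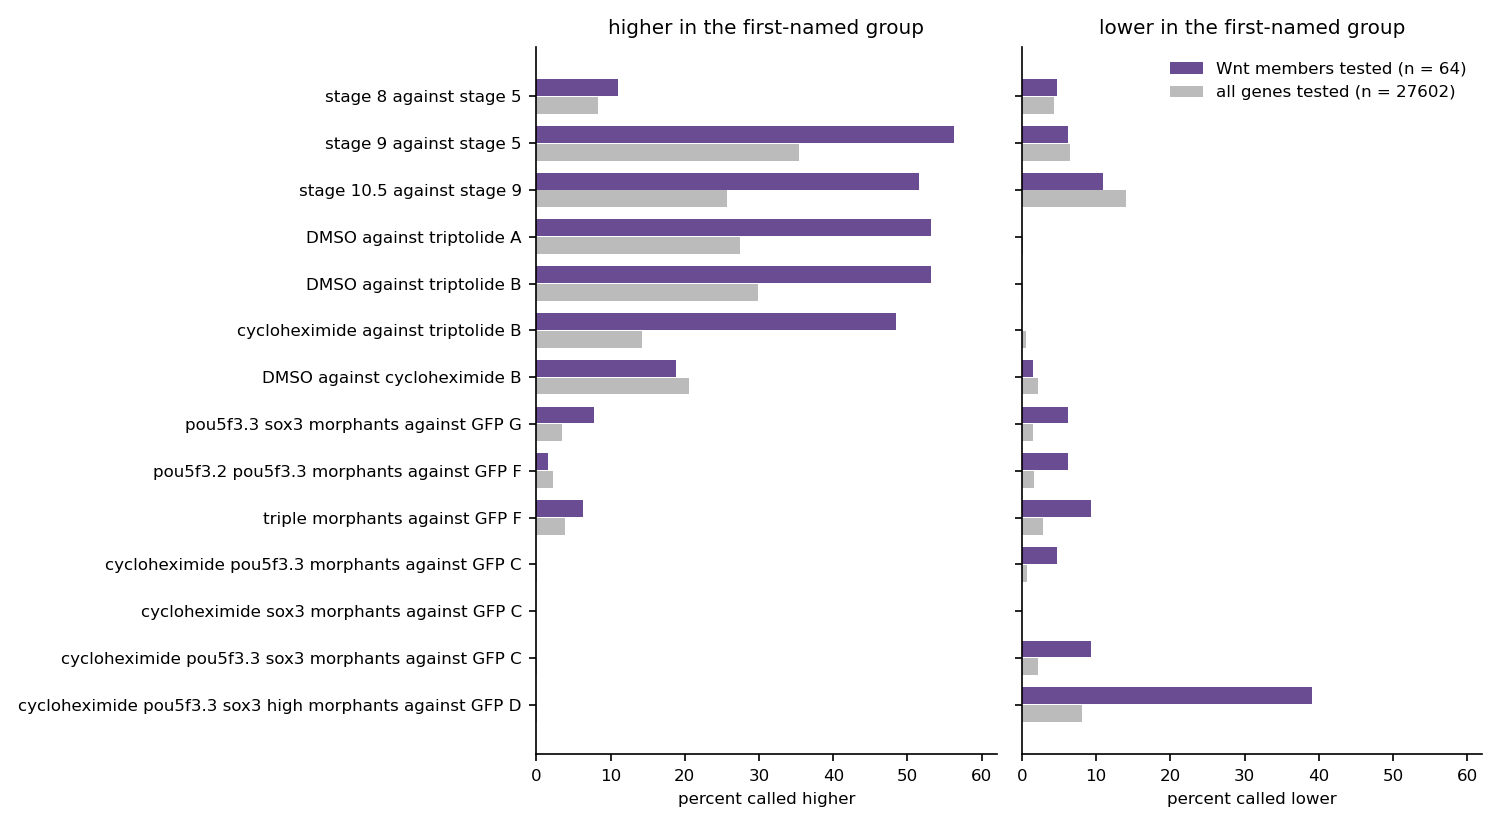
Percent of the 64 tested members (purple) and of all 27602 tested genes (gray) called higher, on the left, and lower, on the right, in the first-named group of each of 14 comparisons. At stage 9 against stage 5, 56.25% of members and 35.4% of genes were higher, and in the high-dose morphants of collection D, 39.1% of members and 8.04% of genes were lower.

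Knockdown of Pou5f3 and Sox3 without cycloheximide changed a small group of members, with sfrp2 and fzd4.S in each comparison. In collection G, 4 members were lower (6.25%, against 1.45% of all genes) and 5 higher (7.81%, against 3.41%) in pou5f3.3 and sox3 morphants. In collection F, 4 were lower (6.25%, against 1.62%) and 1 higher (1.56%, against 2.24%) in pou5f3.2 and pou5f3.3 morphants. In triple morphants of F, 6 were lower (9.38%, against 2.83%) and 4 higher (6.25%, against 3.86%). The exon medians of the members were -0.06, -0.05 and -0.03, against -0.09, -0.03 and -0.02 for all genes. The comparisons in F share their GFP libraries, and G shares none with F. All 4 members lower in G were among the 6 lower in the F triple (100% of the first list, 66.7% of the second), and 2 of the 5 higher in G were among the 4 higher there (40% and 50%), frzb.L and lrp5.L. The overlap over all called genes was not computed, so these shares describe the members and are no trait of the set.

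fzd4.S, a Frizzled receptor gene named here as a called member, lost nearly all intron signal. Its introns had 2.13, 1.57 and 1.5 RPKM with GFP and 0.075, 0.141 and 0.051 in morphants of G (log2 -4.29 ± 0.31, adjusted p = 1.56e-16). In F they had 3.09, 3.84 and 3.64 RPKM with GFP, 0.163, 0.109 and 0.058 in pou5f3.2 and pou5f3.3 morphants (log2 -5.04 ± 0.25, adjusted p = 1.85e-23) and 0.1, 0.104 and 0.035 in triple morphants (log2 -5.43 ± 0.27, adjusted p = 5.56e-24). No morphant library overlapped a GFP library. In exons fzd4.S had 23.3, 21.9 and 19.5 TPM with GFP in F against 6.6, 5.21 and 5.13 and 5.72, 6.82 and 6.36 TPM, below the 12.6 and 12.7 TPM of stage 5. In G the exon levels were 23.1, 20.2 and 18 against 11.2, 12.6 and 15.1 TPM (log2 -0.73, under the threshold).

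sfrp2, whose L copy was the highest antagonist in untreated stage 9 embryos of collection A, was lower in both copies. The summed antagonist level with GFP was 53.7 TPM in F and 56.8 TPM in G. sfrp2.L had 12.8, 11.5 and 11.2 TPM with GFP in F, 3.7, 3.57 and 4.17 in pou5f3.2 and pou5f3.3 morphants (log2 -1.65 ± 0.14, adjusted p = 8.32e-14) and 1.91, 2.98 and 1.78 in the triple (log2 -2.44 ± 0.16, adjusted p = 1.99e-18). In G it had 4.47, 5.84 and 5.92 against 2.48, 1.76 and 2.07 TPM, called by introns (log2 -1.85 ± 0.21, adjusted p = 3.86e-10). sfrp2.S had 3.8, 2.23 and 3.52 against 0.657, 0.518 and 1.19 TPM in G (log2 -2.12 ± 0.29) and 4.46, 4.05 and 3.8 against 0.767, 0.686 and 0.458 TPM in the double morphants of F (log2 -2.70 ± 0.28). GFP and morphant libraries did not overlap for either copy.

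Organizer genes moved in opposite directions. dkk1.L had 2.91, 4.47 and 4.33 TPM with GFP and 0.69, 0.699 and 1.25 in morphants of G (log2 -2.21 ± 0.40, adjusted p = 3.06e-05), and 5.08, 6.25 and 7.51 against 2.33, 1.37 and 1.42 TPM in the F triple (log2 -1.91 ± 0.29, adjusted p = 8.08e-07). In the double morphants of F it had 3.22, 2.7 and 3.67 TPM and was not called. dkk1.S was lower in the F triple by introns (log2 -1.89) and by exons (log2 -1.62 ± 0.29, but -1.26 and -1.43, under the threshold, without GFP replicate 2 or triple replicate 3). frzb.L had 0.621, 0.647 and 0.526 TPM with GFP and 1.57, 1.53 and 3.64 in morphants of G (1.77 ± 0.50, adjusted p = 0.00846, but 0.126 without morphant replicate 3). In F it was called in the triple by introns, with 0.171, 0.472 and 0.329 against 1.32, 0.727 and 0.896 RPKM (1.51 ± 0.21, but 1.25 without GFP replicate 1 and 1.23 without triple replicate 1). frzb.S introns in G had 0.183, 0.159 and 0.086 against 0.457, 0.523 and 0.438 RPKM (1.60 ± 0.32, adjusted p = 0.000165, but 1.35 without GFP replicate 3). The summed level of 10 endoderm marker rows was 58.4 to 69.6 TPM with GFP and 107 to 148 in morphants of G. That of 5 organizer rows was 5.46 to 6.45 and 7.66 to 14.1 TPM, and that of 7 ectoderm rows 100.02 to 131 and 77.3 to 105 TPM. In F the endoderm sum was 94 to 104 TPM with GFP and 176 to 246 in the triple. The organizer sum there was 16.7 to 21.3 and 23.2 to 42.2 TPM, and the ectoderm sum 154 to 172 and 99.6 to 130 TPM. The part of these markers in the Wnt results was not tested.

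The other members that were higher had low levels. The introns of lrp5.L had 0.038, 0.033 and 0.029 RPKM with GFP and 0.119, 0.095 and 0.103 in morphants of G (1.53 ± 0.19, but 1.43 and 1.45 without GFP replicate 3 or morphant replicate 1), and 0.036, 0.039 and 0.04 against 0.15, 0.13 and 0.133 RPKM in the F triple (1.80 ± 0.17, adjusted p = 3.10e-12). Those of lef1.L had 0.012, 0.016 and 0.015 against 0.07, 0.066 and 0.062 RPKM in G (2.10 ± 0.32, adjusted p = 1.15e-06). The intron share of all counts was 3.85% to 4.2% with GFP and 5.47% to 5.76% in morphants of G, and 6.09% to 6.39% with GFP, 6.93% to 7.23% in the double and 6.38% to 7.36% in the triple of F, and its part in these rises was not tested. The calls of fzd6.S in G (adjusted p = 0.0293), fzd6.L in both comparisons of F and wnt2.L in the F triple were lost without single libraries, with adjusted p up to 0.315. The introns of sfrp1.S, at 0.021, 0.037 and 0.017 RPKM with GFP in F, were at 0 in all 6 morphant libraries (adjusted p = 0.00615 in the double), a call lost with DESeq2 in the double and the triple (adjusted p = 0.0921 and 0.0669). wnt8a.L, for comparison, had 19.1, 20.8 and 18.4 TPM with GFP in F and 18.1, 14.4 and 17.5 in the triple, and was not called in any of these comparisons.

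**Figure D4:**
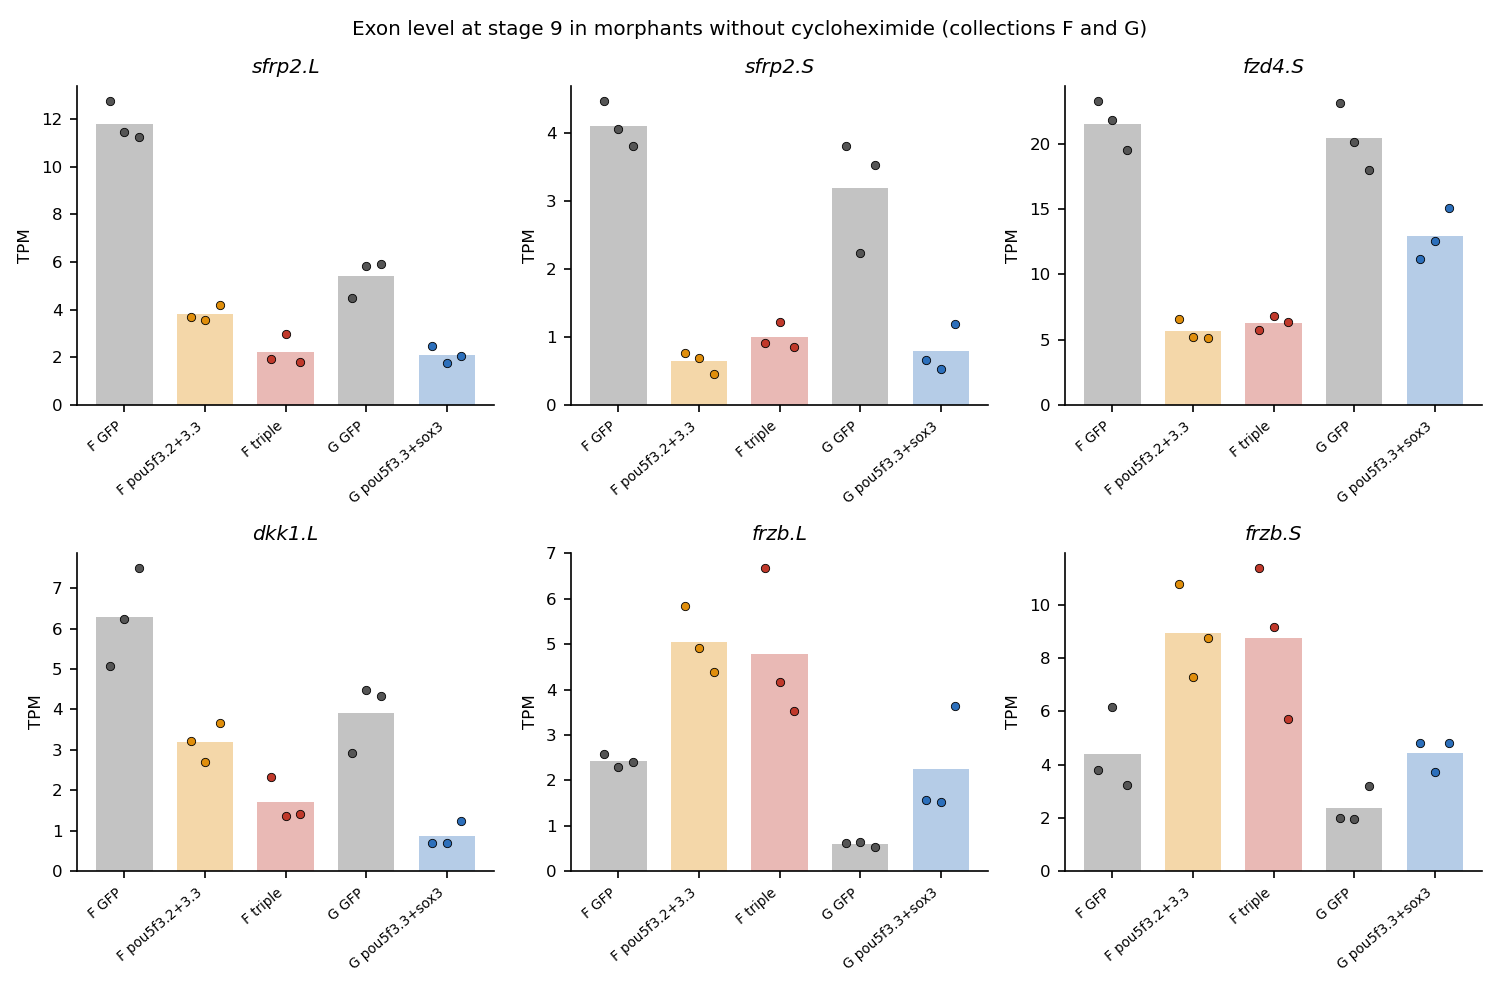
Exon level in TPM of sfrp2.L, sfrp2.S, fzd4.S, dkk1.L, frzb.L and frzb.S in collections F and G, without cycloheximide. Bars are means from 0 and points are the 3 libraries of each group. sfrp2.L falls from between 11.2 and 12.8 TPM with GFP to between 1.78 and 2.98 in the triple morphants of F.

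With cycloheximide, which leaves maternal factors and blocks those made anew, all called members were lower. In collection C, 3 members were lower in pou5f3.3 morphants (4.69%, against 0.67% of all genes) and 6 in morphants of both (9.38%, against 2.17%). In sox3 morphants edgeR called 0 members (0.0181% of all genes lower), DESeq2 called 0, and 9 members had an unadjusted p under 0.05 by edgeR, 2 higher and 7 lower. The share of all genes with an unadjusted p under 0.05 was not computed for any comparison, so such counts describe the members alone. At the high dose in collection D, 25 members were lower (39.1%, against 8.04%): 7 receptors, 7 nuclear effectors, 4 ligands, 3 antagonists, 3 axins and 1 co-receptor. The high-dose group got more morpholino in all than its control with 80 ng GFP. In D, loss of the factors and total morpholino load thus cannot be told apart. Between C and D, dose and collection cannot be told apart either. In pou5f3.3, double and high-dose morphants edgeR and DESeq2 each called 0 members higher, and at an unadjusted p under 0.05 by edgeR 2, 1 and 1 were higher. The share of all genes called higher was 0.0217%, 0.0399% and 0.0616%. The median intron difference of members was -2.32 in D, against -0.86 over all introns, and -0.64 against -0.35 in C with both morpholinos. Of the 28 members transcribed with cycloheximide in collection B, 23 were lower in D (82.1%, against 58.4% of all genes that met the same criteria). The intron share of all counts was itself lower, 1.28% to 1.54% with GFP and 0.88% to 0.98% with both morpholinos in C, and 1.51% to 1.71% against 0.57% to 0.62% in D. The summed level of 7 ectoderm marker rows was 76.1 to 104 TPM with GFP, 42.2 to 46.8 with pou5f3.3 and 27.4 to 29.1 with both in C, and 73.8 to 89.9 against 3.68 to 7.96 TPM in D. That of 10 endoderm rows was 16.2 to 23.8 TPM with GFP, 10.3 to 11.1 with pou5f3.3 and 14.4 to 20.04 with both in C, and 32.2 to 37.8 against 6.98 to 10.5 TPM in D. The 8 mesoderm rows, which include wnt8a and already summed to 408 to 412 TPM at stage 5, moved little. Their sum was 406 to 461 TPM with GFP, 422 to 434 with pou5f3.3 and 456 to 488 with both in C. In D it was 440 TPM with GFP and 411 to 429 at the high dose. The part of these in the Wnt results was not tested.

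sfrp2 was lower in each comparison that held the pou5f3.3 morpholino. sfrp2.L had 5.15 and 7.79 TPM with GFP in C, 7.52 and 7.98 with sox3, 2.2 and 1.97 with pou5f3.3 (log2 -1.62 ± 0.22, but -1.27, under the threshold, without GFP replicate 2) and 1.33 and 1.28 with both (log2 -2.29 ± 0.25, adjusted p = 2.99e-09). In D it had 4.74 and 3.14 against 0.405 and 0.21 TPM (log2 -3.63 ± 0.35). The introns of sfrp2.S had 1.24 and 1.49 RPKM with GFP, 0.241 and 0.395 with pou5f3.3 (log2 -2.11 ± 0.27, adjusted p = 7.37e-07) and 0.23 and 0.197 with both, and 2.21 and 1.62 against 0.08 and 0.19 in D. fzd4.S introns had 0.381 and 0.303 RPKM with GFP, 0.183 and 0.06 with pou5f3.3, 0.18 and 0.305 with sox3 and 0.031 and 0 with both in C (adjusted p = 0.00035 for both), and 0.133 and 0.238 against 0 and 0 in D (adjusted p = 0.000136). Its exons, with 23 and 28.3 TPM with GFP and 23 and 23.9 with both in C, hardly moved. wnt11b.L introns had 0.609 and 0.739 RPKM with GFP and 0.163 and 0.208 with pou5f3.3 (log2 -1.85 ± 0.41, adjusted p = 0.0073), a call lost without GFP replicate 2 (adjusted p = 0.284) and without either pou5f3.3 library (0.254 and 0.0622). Without GFP replicate 2, 1 rather than 3 members was called in pou5f3.3 morphants.

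The remaining calls with both morpholinos in C rested on single libraries. dkk1.L had 1.66 and 2.44 TPM with GFP and 0 and 0.3 with both (log2 -3.60 ± 0.83, adjusted p = 0.00523, but 0.149 without GFP replicate 2 and 0.179 without morphant replicate 1). fzd9.S, a Frizzled receptor gene, had 1.03 and 1.02 against 0.28 and 0.216 TPM (log2 -2.01 ± 0.51, adjusted p = 0.0133, and 0.0519 to 0.208 without any 1 library). tcf7l1.L introns had 0.232 and 0.366 against 0.087 and 0.115 RPKM (log2 -1.54 ± 0.26, and -1.17 and -1.36 without the same libraries as for dkk1.L). Without GFP replicate 2 or morphant replicate 1, 3 rather than 6 members were called. Of these 6, 5 were also lower in D (83.3% of the first list and 20% of the second), namely fzd4.S, fzd9.S, sfrp2.L, sfrp2.S and tcf7l1.L. Here too the overlap over all called genes was not computed.

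In collection D, 13 of the 17 maternal members with tested introns were lower by introns, and fzd3.S, fzd6.L, fzd6.S and lrp5.L were not called. The median over all introns tested was itself -0.86 in D. The same share over all maternal genes was not computed, so the count describes the members alone. tcf7l1.L introns had 0.487 and 0.426 RPKM with GFP and 0.016 and 0.017 at the high dose (log2 -4.70 ± 0.32, adjusted p = 1.17e-16), and those of tcf7l1.S were lower by -3.58 ± 0.23 on the log2 scale (adjusted p = 2.25e-17). ctnnb1.L introns had 1.23 and 1.04 against 0.13 and 0.112 RPKM (log2 -3.18 ± 0.28), and ctnnb1.S had a log2 difference of -3.85 ± 0.33. wnt11b.L introns had 0.907 and 0.948 against 0.163 and 0.09 RPKM (log2 -2.86 ± 0.38), and lrp6.L introns 0.215 and 0.195 against 0.027 and 0.031 (log2 -2.76 ± 0.23). Among the genes without a maternal pool, the exons of wnt8a.L (log2 -4.39 ± 1.02) and dkk1.S (log2 -4.23 ± 0.91) were lower, with adjusted p = 0.0907 and 0.0547 without high-dose replicate 2. lef1.L exons were at 0 at the high dose (at least 2.26-fold lower, adjusted p = 0.0107, and 0.0781 to 0.183 without 1 of 3 libraries). The introns of dkk1.S, fzd3.L and lef1.S also lost their calls without single libraries.

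**Figure D5:**
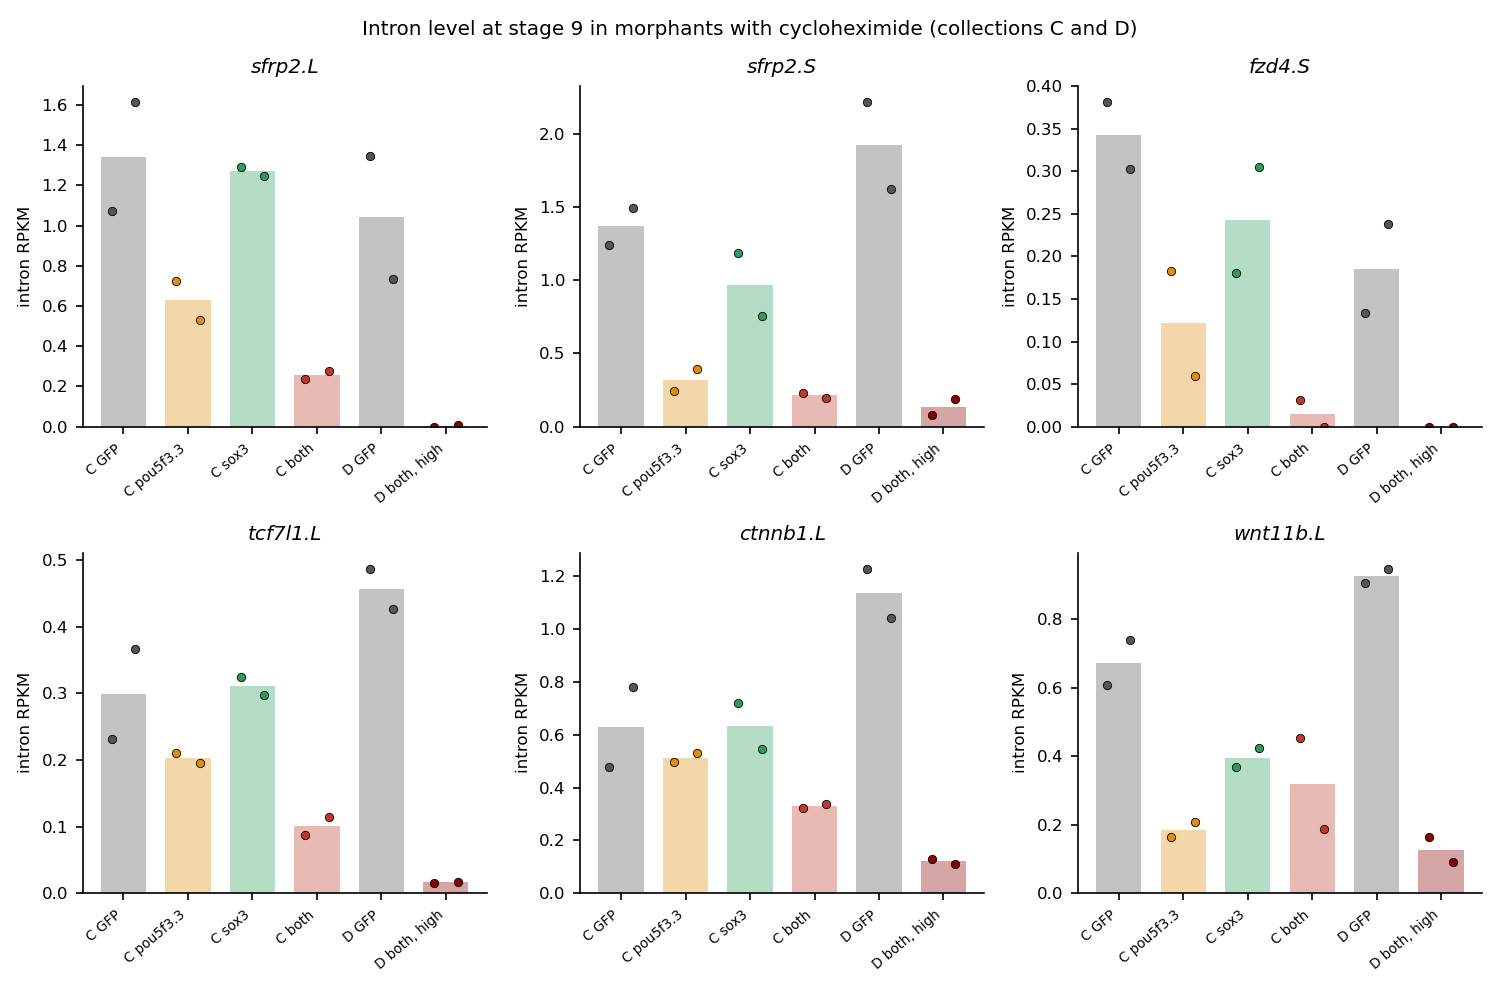
Intron level in RPKM of sfrp2.L, sfrp2.S, fzd4.S, tcf7l1.L, ctnnb1.L and wnt11b.L in collections C and D, all in cycloheximide. Bars are means from 0 and points are the 2 libraries of each group. ctnnb1.L falls from 1.23 and 1.04 RPKM with GFP to 0.13 and 0.112 at the high dose of collection D.

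The 2 copies of a gene often had different shares of its RNA, and some shares shifted with stage. Values here are the L share of the summed TPM, as mean ± SD over 2 libraries, with no test. sfrp2 was mostly S in the maternal pool (4.67% ± 0.12 L at stage 5) and mostly L after activation (57.6% ± 1.91 at stage 9, 68.8% ± 0.80 at stage 10.5). fzd7 was nearly all L at stage 5 (97.5% ± 0.18), 78.5% ± 0.41 at stage 9 and 82.4% ± 0.27 at stage 10.5. wnt8a was 78.8% ± 3.93 L at stage 9 and 66.0% ± 0.83 at stage 10.5. fzd8 went from a mean of 84.3% L at stage 5 to 44.2% at stage 10.5. The stage 5 shares of fzd8 and sfrp2 rest on low levels. Mean TPM there was 0.64 for fzd8.L, 0.115 for fzd8.S, 0.07 for sfrp2.L and 1.42 for sfrp2.S. dkk1 was all S at stage 8 and 39.8% ± 3.62 L at stage 9. Of the 9 pairs with both copies at 1 TPM or more at stage 5, 4 stayed between 40% and 60% L at stages 5, 8, 9 and 10.5. These were ctnnb1 (52.0% to 55.4%), axin2 (50.3% to 58.1%), lrp6 (44.6% to 52.9%) and fzd6 (40.5% to 59.9%). The others were fzd7, axin1 (10.1% to 24.5% L), tcf7l1 (32.4% to 37.9%), fzd5 (74.0% to 86.1%) and fzd3, which went from 78.1% L at stage 8 to 37.8% at stage 10.5. Reads that match both copies of a gene do not tell them apart, so shares of near-identical copies are uncertain. The lrp6 share is uncertain too, because the lrp6.S row has only 339 bases of exon.

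A further list of Wnt pathway genes outside the set (destruction complex, Dishevelled, nuclear partners, ligand secretion, R-spondins and receptor turnover, planar polarity, other secreted antagonists and early Wnt targets) held 117 rows, of which 104 were tested. Of these, 68 were higher (65.4%, against 35.4% of all genes) and 5 lower (4.81%, against 6.44%) at stage 9 than at stage 5. At stage 10.5, 55 were higher (52.9%, against 25.7%) and 13 lower (12.5%, against 14%) than at stage 9. Over triptolide, 62 were higher with DMSO in A (59.6%, against 27.4%), 58 in B (55.8%, against 29.8%) and 45 with cycloheximide (43.3%, against 14.2%). In morphants of G, 6 were higher (5.77%, against 3.41%) and 3 lower (2.88%, against 1.45%). In F, 3 were higher and 3 lower in the double (2.88% each, against 2.24% and 1.62%), and 8 and 5 in the triple (7.69% and 4.81%, against 3.86% and 2.83%). With cycloheximide, 5 were lower with pou5f3.3 in C (4.81%, against 0.67%), 7 with both (6.73%, against 2.17%) and 35 at the high dose in D (33.7%, against 8.04%). With sox3 edgeR called 0, and 9 had an unadjusted p under 0.05, a threshold at which the share of all genes was not computed. Of 17 tested early targets of the pathway, 13 were higher and 1 lower, cdx1.L, at stage 9 than at stage 5. The higher ones included the dorsal homeobox genes sia1.L and sia1.S, the nodal3 genes, the posterior genes cdx1.S, cdx2.L and cdx4.L, and sp5.L. In G and both comparisons of F, 1 early target was higher, sp5.S, and 1 lower, cdx1.S.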

How the data were processed

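Total RNA of whole embryos was sequenced in 60 libraries of 29 conditions. The authors aligned reads with HISAT2 (2.2.1 in the processing notes) to the X. laevis v9.2 genome and made the deposited exon and intron counts with featureCounts 2.0.1 on the coding strand. Their intron regions leave out stretches covered at stage 5, exons of other forms, repeats and sequence shared between genes. The deposited TPM values were made by the authors from exon counts, and their deposited RPKM values divide intron counts by intron kilobases and by 1e6 exon counts.

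Exon entries (27602) that reached 0.5 counts per 1e6 in any library and intron entries (9916) that in some library exceeded a count of 10 and reached 0.25 RPKM, of all libraries but those of collection H entered 1 edgeR 4.0.16 quasi-likelihood fit (R 4.3.3) with TMM scaling and 1 coefficient per group. The fit was also run on simulated data with a fixed spread and with changes only in well-counted entries. That run does not cover calls that rest on groups at or near 0. p-values were adjusted over all entries, standard errors divide the log2 difference by the root of F, and groups at 0 were set to 3 counts per library for folds. Alternatives were DESeq2 1.42.0, its size factors, TMM from exons alone, no filter, a fit of only the groups compared, a replicate block and leaving out each library. Named members are textbook Wnt genes fixed by symbol, up to 3 called members with the largest difference per direction and comparison, and the highest member of each role; others are named because they were called or passed on values seen. The members, the pathway list and the germ layer, organizer, germ plasm, blood and sperm marker lists were chosen with earlier results of these data known. The sperm list matched 0 rows, and the 5 germ plasm rows summed to 133 to 139 TPM at stage 10.5 and to 414 TPM or more in every other group. No sequence is printed.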

Additional observations from a re-analysis of the deposited data

Results flagged for a closer look

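The DMSO against triptolide difference was compared between collections A and B by an interaction term in the edgeR fit, which 182 of 37518 entries passed at an adjusted p under 0.05. Among the members it differed for 3 entries. In exons of fzd4.S the difference was 1.94 log2 units in A and 0.71 in B, 1.23 apart (adjusted p = 0.000771), with triptolide levels of 7.42 and 6.9 TPM in A and 14.5 and 11.8 TPM in B. In introns of ctnnb1.S it was 5.58 in A and 7.71 in B (A minus B -2.13, adjusted p = 0.0356), with 0.096 and 0.204 RPKM with triptolide in A and 0.01 and 0.036 in B. In exons of fzd7.S it was 3.57 in A and 2.59 in B, 0.98 apart (adjusted p = 0.0388), with triptolide levels of 3.21 and 2.88 TPM in A and 6.4 and 5.66 TPM in B. All 3 were called higher with DMSO in both collections by exons or introns.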

How the results depend on the processing

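Of 334 called entries of members, 0 changed direction in 3398 recomputed values, and 145 of these, for 52 entries, fell short of the threshold: 101 on leaving out a library, 17 of 334 with DESeq2, 9 each without the filter and with only the groups compared, 5 of 324 with the replicate block, 3 with TMM from exons alone and 1 with DESeq2 size factors. With DESeq2 the calls of dkk2.S at stage 9 (adjusted p = 0.326) and of fzd6.S in G (0.109) were among those lost. Leaving out libraries gave counts of calls, higher and lower together, of 6 to 9 for stage 8 against stage 5, 36 to 39 for stage 9 against 5, 39 to 40 for stage 10.5 against 9, 32 to 34 for triptolide in A and 31 to 34 in B, 29 to 31 for cycloheximide against triptolide, 12 to 15 for DMSO against cycloheximide, 6 to 8 for G, 4 to 7 and 8 to 10 for the double and triple of F, 1 to 3, 0 and 3 to 6 for pou5f3.3, sox3 and both in C, and 23 to 26 for D. The other alternatives moved no count by more than 1.5 times. Replicate numbers did not pair the samples: deviations of same-numbered libraries correlated from -0.517 to 0.327. The replicate block gave 33 members for triptolide in A, 38 for stage 9 and 8 for G, and no other count changed. No paired analysis was possible for stage 8 against stage 5 because a stage 8 library carries no number. Depth limits the genes at 0, for which folds are lower bounds.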

Other observations

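Libraries that entered no test are given as values. In collection E, with 1 library a group and no cycloheximide, sfrp2.L had 17.1 TPM untreated, 17.3 with GFP morpholino and 8.39 with 40 ng each of pou5f3.3 and sox3 morpholino. sfrp2.S had 18.5, 12 and 4.34 TPM and fzd4.S 18.9, 18.9 and 8.02 TPM in that order. frzb.L had 1.72, 1.93 and 6.15 TPM and frzb.S 1.04, 2.36 and 16 TPM. The introns of fzd4.S had 4.01 RPKM with GFP and 0.16 with both morpholinos, and those of lrp5.L 0.047 and 0.286 RPKM.

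In collection H, which the submitters discarded over a likely cycloheximide problem, sfrp2.L had 11.1, 14.5 and 12.2 TPM with cycloheximide and GFP morpholino and 2.85 and 2.65 with cycloheximide and the triple. sfrp2.S had 7.5, 9.26 and 8.57 against 1.68 and 2.17 TPM, and dkk1.L 0.757, 1.82 and 2.26 against 0 and 0. fzd4.S introns had 0.871, 1.22 and 0.845 against 0.032 and 0.057 RPKM. The triple morphants of F in cycloheximide have no GFP group in cycloheximide in that collection. They had 0.391, 0.716 and 0.51 TPM of sfrp2.L, 0.114, 0.697 and 0.238 TPM of wnt8a.L, 9.13, 9.19 and 7.92 TPM of fzd4.S and 0 TPM of dkk1.L in all 3 libraries.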
